A study of Homo sapiens with 8 samples.

Results

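Voltage-gated sodium and calcium channel genes were followed across 4 treatments of NCH644, a glioblastoma cell line with stem-like properties that grows as neurospheres. The genes were taken by symbol, as every sodium channel alpha or beta subunit gene (SCN followed by a number and A or B) and every calcium channel alpha1, alpha2delta, beta or gamma subunit gene (CACNA, CACNB, CACNG) on the array, so the rule reads symbols and no measured value. The rule found 37 of 22458 named genes, 12 of them sodium and 25 calcium channel genes, and left out 6 hyphenated symbols such as antisense transcripts. By class they were 9 sodium alpha, 3 sodium beta, 10 calcium alpha1, 4 alpha2delta, 3 calcium beta and 8 gamma genes.

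All cells were NCH644 in MG-43 medium, and RNA was taken 24 h after treatment. The vehicle group received DMSO. The OTX015 group received 5 µM OTX015, an inhibitor of the BET bromodomain proteins that read acetylated histones. The panobinostat group received 5 µM panobinostat, an inhibitor of histone deacetylases, and the last group received OTX015 and panobinostat together, each at 5 µM. Each group held 2 arrays, called biological duplicates by the submitters, from a single line in culture.

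Voltage-gated sodium channels open on depolarisation and carry the rising phase of the action potential. Their large alpha subunit forms the pore, and small beta subunits with an immunoglobulin-like domain tune gating and bind other cells. In calcium channels an alpha1 subunit forms the pore, alpha2delta and beta subunits bring it to the membrane, and the entering calcium couples electrical activity to secretion and transcription. The gamma family includes true channel subunits of muscle and the TARPs, which escort AMPA-type glutamate receptors to synapses. Many of these genes are known to be silenced outside neurons by the repressor REST, which works through histone deacetylases.

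Levels are on the log2 scale as made by RMA. A change is a difference of group means of log2 values, 2 arrays against 2, printed with its standard error after ± from limma, and "called" stands for a Benjamini-Hochberg adjusted p under 0.05 over all 22458 genes. Background was set at a log2 value of 3.03, under which 95 percent of group means fell for 354 olfactory receptor genes. A fold written as "at least" has its dimmer group under 3.03 and is measured from 3.03 instead. Array medians lay between 3.87 and 4.0, duplicates correlated at r = 0.9903 to 0.993 across genes, and only 2 arrays a group limit the precision of every value. All 6 glioma stem cell markers fixed for checking the label (SOX2, PROM1, NES, OLIG2, PTPRZ1, SOX9) were above background in DMSO. In bulk RNA such as this, fewer cells with a transcript and less of it per cell cannot be told apart.

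Many channel genes were dim. Of the 37, 18 stayed under background in every group, with single array values from 1.37 to 3.12, and 19 had a mean above it in at least 1 group. The dim genes included the neuronal sodium channel SCN2A, the sensory neuron channels SCN10A and SCN11A, the muscle genes SCN4A and CACNA1S and the L-type gene CACNA1C. Against DMSO, 14 of the 37 were called with at least 1 treatment, 3 of them with all 3 (SCN9A, SCN3B and CACNG4), and 23 with none. Only SCN4A was called while under background throughout, with a change of 0.50 ± 0.15 under panobinostat (adjusted p = 0.0269), and the call was lost without DMSO replicate 1 (0.33, adjusted p = 0.149) or either panobinostat array (0.43 and 0.56, adjusted p = 0.14 and 0.0631). SCN11A, also dim, was called lower with both drugs than with OTX015 alone (-0.69 ± 0.17, adjusted p = 0.0157), a call lost without OTX015 replicate 1 or combination replicate 1 (adjusted p = 0.103 and 0.0897).

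The share of channel genes called lay below or near that of all genes. OTX015 changed 4 of 37 (10.8%), where 16.5% of all genes were called, with 2 higher (all genes 7.97%) and 2 lower (8.49%). Panobinostat changed 10 of 37 (27%, all genes 37.2%), with 8 higher (19.4%) and 2 lower (17.9%). Both drugs changed 12 of 37 (32.4%, all genes 37.5%), with 7 higher (19.2%) and 5 lower (18.4%). Against OTX015 alone, the combination changed 11 of 37 (29.7%, all genes 30.0%), with 8 higher (15.3%) and 3 lower (14.7%). Against panobinostat alone it changed 4 of 37 (10.8%, all genes 10.4%), with 1 higher (4.33%) and 3 lower (6.10%). Panobinostat against OTX015 gave 9 of 37 (24.3%, all genes 29.3%), with 7 higher (16.0%) and 2 lower (13.3%). The interaction of the drugs gave 5 of 37 (13.5%, all genes 13.7%), with 3 higher (6.32%) and 2 lower (7.42%).

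The shares were also set against those of the 15036 genes above background in at least 1 group. Of the 19 such channel genes, 4 were called with OTX015 (21.1%, against 23.7% of all genes above background), 9 with panobinostat (47.4%, against 51.9%) and 12 with both drugs (63.2%, against 52.9%). The combination against OTX015 gave 10 of 19 (52.6%, against 42.9%) and against panobinostat 4 of 19 (21.1%, against 15.0%). Panobinostat against OTX015 gave 8 of 19 (42.1%, against 41.5%) and the interaction 5 of 19 (26.3%, against 19.7%). A gene above background only in a treated group had to differ from DMSO, so these shares are a description.

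The median change of the 37 was -0.02, 0.06 and 0.07 for OTX015, panobinostat and both, beside -0.02, -0.05 and 0.01 for all genes. With centred arrays, which moves all genes alike, the panobinostat median was -0.02 for the 37 and -0.14 for all genes. With quantile normalization the median for both drugs was -0.02 for the 37 and 0.01 for all genes. The comparisons with DMSO share their 2 vehicle arrays.

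**Figure D1:**
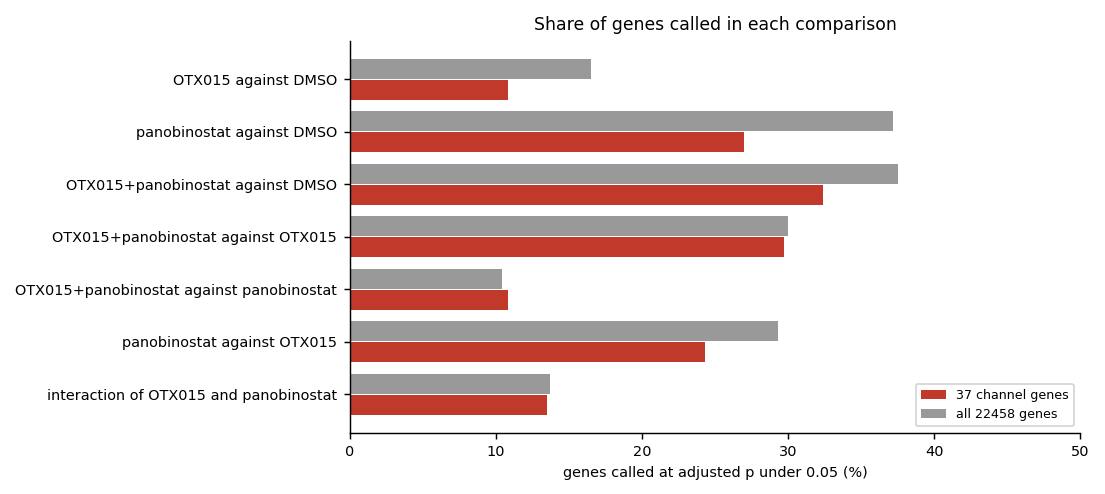
Percent of genes called at adjusted p under 0.05 in each of 7 comparisons, for the 37 channel genes (red bars) and all 22458 genes (grey bars). The red bar ends below or close to the grey bar in every comparison, as for panobinostat against DMSO with 27% and 37.2%.

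**Figure D2:**
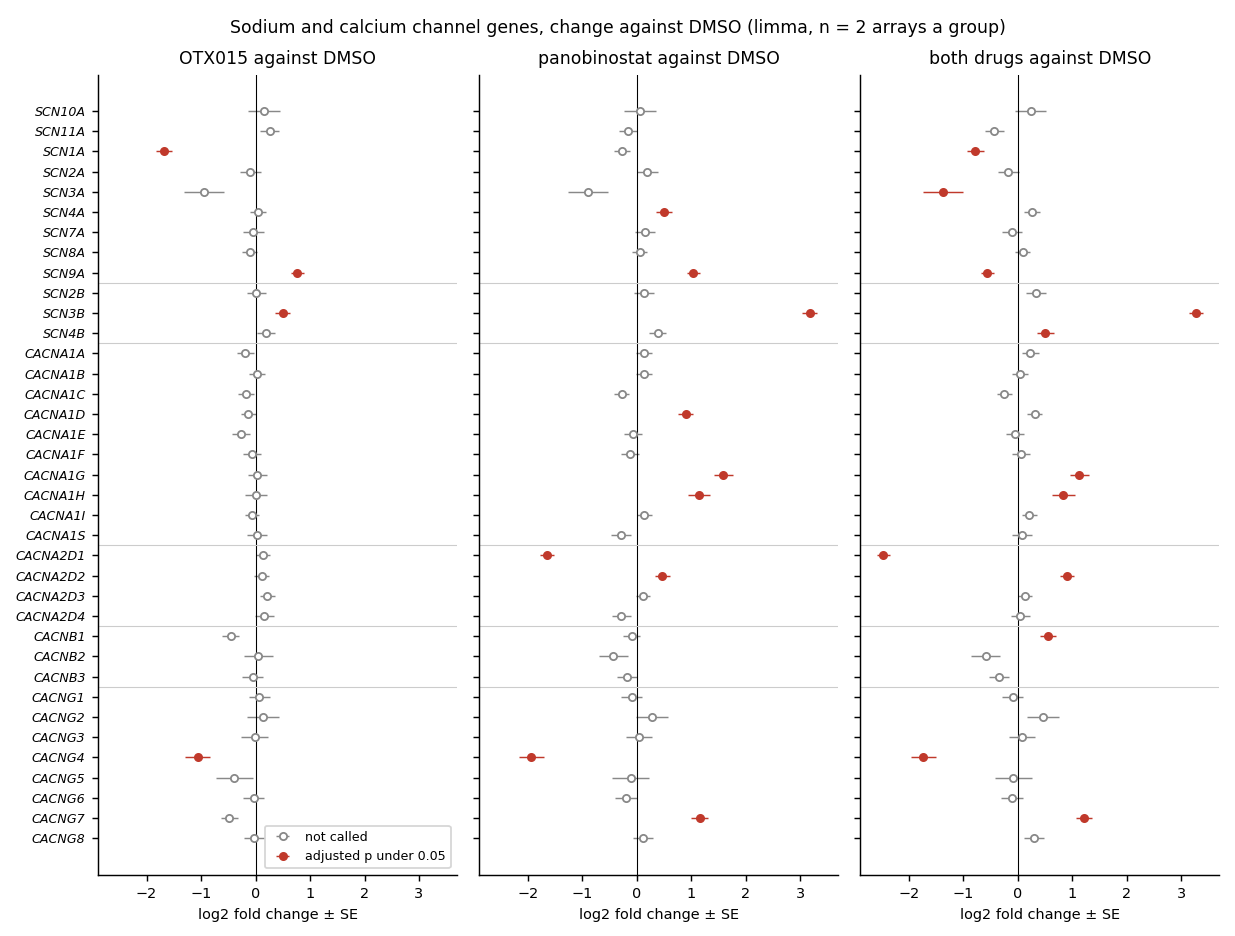
Log2 fold change (horizontal axis, points, bars are SE) of each of the 37 channel genes (rows, by class) against DMSO for OTX015, panobinostat and both drugs. Filled red points passed adjusted p under 0.05, and most genes sit near 0 while SCN3B, CACNA2D1, CACNG4, SCN1A and CACNA1G stand away from it.

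Among the sodium channel alpha subunits, SCN9A and SCN1A responded in different ways, although they lie next to each other on chromosome 2 with 0 protein-coding genes between them in RefSeq. SCN9A encodes a channel of pain-sensing and other peripheral neurons, and SCN1A a channel of inhibitory neurons whose loss causes epilepsy. Their promoters are shown because the pair differs in the response to OTX015 and in base composition. Whether these differences are linked was not tested. The sequences run from 250 bases before to 50 bases after a transcript start, 5′ to 3′ on the gene's own strand, and are from RefSeq on GRCh38.p14. Capitals mark GC boxes (GGGCGG or its reverse complement CCGCCC, the core of the site bound by SP1). SCN9A is at chr2:166375895-166376194, minus strand, and SCN1A has 2 listed starts, at chr2:166127971-166128270 and chr2:166149112-166149411, both minus strand.

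SCN9A: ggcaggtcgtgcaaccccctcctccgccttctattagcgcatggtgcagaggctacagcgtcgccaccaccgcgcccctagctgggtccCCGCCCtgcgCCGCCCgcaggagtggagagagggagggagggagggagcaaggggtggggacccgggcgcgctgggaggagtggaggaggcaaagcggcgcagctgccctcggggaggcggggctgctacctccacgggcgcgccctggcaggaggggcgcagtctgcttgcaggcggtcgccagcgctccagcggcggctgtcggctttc

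SCN1A first start: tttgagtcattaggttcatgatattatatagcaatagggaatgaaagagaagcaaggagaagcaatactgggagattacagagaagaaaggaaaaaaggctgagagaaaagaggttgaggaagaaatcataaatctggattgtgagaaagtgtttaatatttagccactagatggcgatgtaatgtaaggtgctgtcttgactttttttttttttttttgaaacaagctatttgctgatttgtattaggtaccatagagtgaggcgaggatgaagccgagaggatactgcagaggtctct

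SCN1A second start: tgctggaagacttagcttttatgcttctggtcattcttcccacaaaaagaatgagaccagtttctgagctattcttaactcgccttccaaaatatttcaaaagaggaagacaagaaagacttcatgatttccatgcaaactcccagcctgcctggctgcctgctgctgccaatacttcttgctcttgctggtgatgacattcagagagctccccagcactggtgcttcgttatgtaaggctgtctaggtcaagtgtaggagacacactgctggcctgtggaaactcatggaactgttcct

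The SCN9A window holds 28 CpG dinucleotides, 73.3% G and C and 2 GC boxes. The SCN1A windows hold 3 and 2 CpG dinucleotides, 37% and 46.3% G and C and 0 GC boxes. GC boxes occur in 45% of all 35116 listed promoters of this length and in 20 of the 35 listed for the channel genes (57.1%). These letters describe the windows and show no binding.

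SCN9A read 5.91 and 6.02 in DMSO, 6.73 on both OTX015 arrays, 7.0 and 7.01 in panobinostat, and 5.36 and 5.45 with both drugs. Each single drug lifted it above both vehicle arrays, and the combination put it below them, with no overlap between any pair of groups. It rose 1.7-fold with OTX015 (0.77 ± 0.12, adjusted p = 0.00379) and 2.05-fold with panobinostat (1.04 ± 0.12, adjusted p = 0.000205), and fell 1.47-fold with both (-0.56 ± 0.12, adjusted p = 0.00605). The combination was 2.51-fold below OTX015 alone and 3.02-fold below panobinostat alone (adjusted p = 7.91e-05 and 0.000693). The difference between the single drugs was 0.27 (95% interval -0.01 to 0.55, adjusted p = 0.139).

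SCN1A read 4.23 and 4.39 in DMSO, 2.71 and 2.55 in OTX015, 4.18 and 3.89 in panobinostat, and 3.50 and 3.57 with both. OTX015 took it under background, panobinostat alone left it just below the vehicle arrays, and the combination lay in between. The fall with OTX015 was at least 2.43-fold (-1.68 ± 0.15, adjusted p = 0.000336), and with both drugs 1.71-fold (-0.78 ± 0.15, adjusted p = 0.00315). Panobinostat alone gave -0.28 ± 0.15 (95% interval -0.61 to 0.06, adjusted p = 0.191), and SCN1A was at least 2.01-fold higher with panobinostat than with OTX015 (adjusted p = 0.000205). With both drugs SCN1A was at least 1.42-fold above OTX015 alone (adjusted p = 0.00184).

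The other sodium alpha genes changed little or were dim. SCN8A, the channel of the axon initial segment in adult neurons, stayed between 3.86 and 4.23 on all 8 arrays, and its changes against DMSO were -0.11, 0.06 and 0.09, with intervals within -0.42 to 0.40. SCN3A, a channel of the embryonic brain, read 3.92 and 2.64 in DMSO, 2.65 and 2.03 in OTX015, 2.43 and 2.36 in panobinostat, and 1.89 and 1.92 with both drugs. Its vehicle arrays disagreed, and only DMSO replicate 1 and no treated array was above background. The fall with both drugs (-1.37 ± 0.37, adjusted p = 0.0169, at least 1.19-fold) became -0.73 without DMSO replicate 1 (adjusted p = 0.0577) and lost its call without either combination array (adjusted p = 0.0671 and 0.0614). Without DMSO replicate 2, SCN3A was called under OTX015 (-1.58, adjusted p = 0.00994) and panobinostat (-1.53, adjusted p = 0.00276) too. SCN7A, the next gene after SCN9A and a sodium sensor, and SCN2A, the neighbour of SCN3A, were under background in every group and were called in no comparison.

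Of the sodium beta subunits, SCN3B showed the largest change of any channel gene. SCN3B encodes a beta subunit of brain and heart that is known from other cells as a p53-inducible gene. It read 3.16 and 3.38 in DMSO, 3.81 and 3.72 in OTX015, 6.45 and 6.44 in panobinostat, and 6.51 and 6.57 with both drugs. The groups with panobinostat stood far above those without it. Panobinostat raised it 9.03-fold (3.17 ± 0.13, adjusted p = 1.71e-06) and both drugs 9.67-fold (3.27 ± 0.13, adjusted p = 1.04e-06). OTX015 added to panobinostat gave 0.10 ± 0.13 (95% interval -0.20 to 0.40, adjusted p = 0.697). The small rise with OTX015 alone (0.50 ± 0.13, adjusted p = 0.0344) lost its call when any array but DMSO replicate 2 was left out (adjusted p up to 0.16).

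SCN4B, whose product shapes the resurgent sodium current, ranged from 4.30 to 5.0 over the 8 arrays and rose with both drugs by 0.51 ± 0.16 (adjusted p = 0.034). It passed in no other comparison, and this call was lost without DMSO replicate 1 or 2 or combination replicate 1 (adjusted p = 0.124, 0.0753 and 0.197) and with centred arrays. SCN2B, its neighbour on chromosome 11 with 0 protein-coding genes between them, stayed under background.

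**Figure D3:**
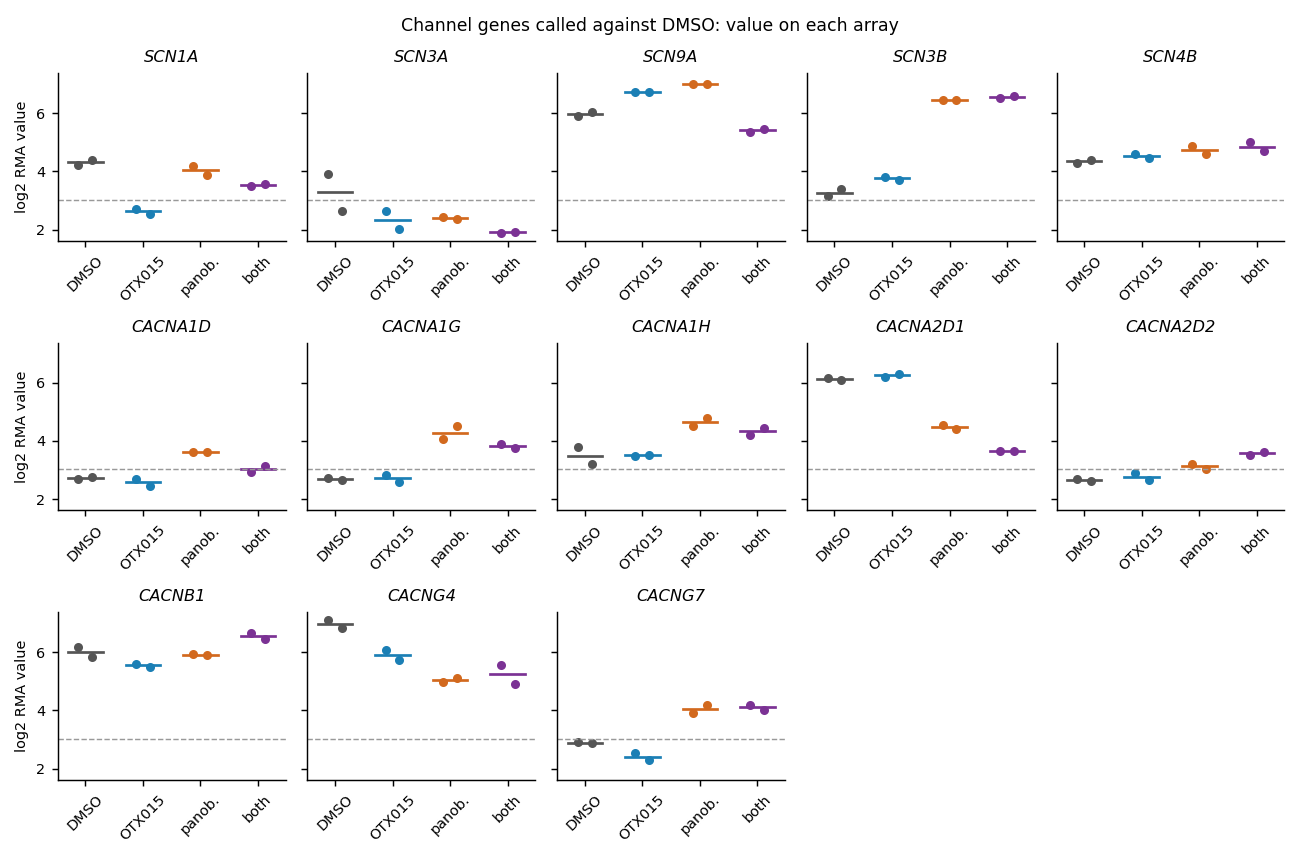
Log2 RMA value on each array (points) and group mean (bars) for the 13 channel genes that were above background in at least 1 group and called against DMSO with at least 1 treatment, and the background level of 3.03 (dashed line). SCN3B lies above 6 in both groups with panobinostat and below 4 in the others, CACNA2D1 steps down, and SCN9A is high with each drug alone and low with both.

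Among calcium channel alpha1 subunits, OTX015 changed 0 of 10 by limma at adjusted p under 0.05, where 16.5% of all genes were called. At an unadjusted p under 0.05 it also changed 0. Only 5 of the 10 were above background in at least 1 group. Panobinostat raised 3 (all genes 19.4%) and lowered 0 (17.9%). CACNA1G and CACNA1H encode T-type channels, which open near the resting potential, and CACNA1D an L-type channel that opens at lower voltages than its relative CACNA1C.

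CACNA1G read 2.72 and 2.67 in DMSO, 2.84 and 2.60 in OTX015, 4.05 and 4.52 in panobinostat, and 3.89 and 3.77 with both drugs. All 4 arrays without panobinostat were under background and all 4 with it above. The rise was at least 2.39-fold with panobinostat (1.59 ± 0.17, adjusted p = 0.000151) and at least 1.74-fold with both (1.13 ± 0.17, adjusted p = 0.000946). OTX015 alone gave 0.03 (95% interval -0.37 to 0.43).

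CACNA1H read 3.79 and 3.20 in DMSO, 3.49 and 3.52 in OTX015, 4.50 and 4.77 in panobinostat, and 4.21 and 4.45 with both. The panobinostat groups again lay above the others without overlap. It rose 2.2-fold with panobinostat (1.14 ± 0.21, adjusted p = 0.00232) and 1.79-fold with both drugs (0.84 ± 0.21, adjusted p = 0.0113), and the latter call was lost without DMSO replicate 2 (0.54, adjusted p = 0.0607) or combination replicate 2 (0.72, adjusted p = 0.0706). The T-type gene CACNA1I, also above background, ranged from 3.32 to 3.79 and was called in no comparison.

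CACNA1D ranged from 2.47 to 3.62 and was highest with panobinostat alone. Panobinostat raised it at least 1.51-fold (0.90 ± 0.14, adjusted p = 0.000972). The combination gave 0.32 ± 0.14 against DMSO (adjusted p = 0.115) and lay below panobinostat alone (-0.59 ± 0.14, adjusted p = 0.0327), a call lost when any panobinostat or combination array was left out (adjusted p = 0.0646 to 0.166). CACNA1B, the N-type channel of nerve terminals, hovered at the background level (3.15 to 3.52) and was called in no comparison.

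Of the alpha2delta subunits, CACNA2D1 fell and CACNA2D2 rose. CACNA2D1 encodes the subunit bound by gabapentin drugs, which is also a receptor for thrombospondins. Its promoter is shown as that of the channel gene with the largest fall, from chr7:82443907-82444206 on the minus strand (GRCh38.p14, RefSeq), with GC boxes in capitals.

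CACNA2D1: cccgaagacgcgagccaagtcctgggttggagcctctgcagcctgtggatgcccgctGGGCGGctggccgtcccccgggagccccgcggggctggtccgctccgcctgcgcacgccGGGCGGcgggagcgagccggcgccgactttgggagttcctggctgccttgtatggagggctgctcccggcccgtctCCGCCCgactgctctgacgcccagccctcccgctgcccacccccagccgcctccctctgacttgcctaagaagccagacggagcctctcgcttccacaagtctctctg

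This window holds 29 CpG dinucleotides and 3 GC boxes and is 72.3% G and C, close to the composition of the SCN9A window. CACNA2D1 read 6.16 and 6.08 in DMSO, 6.21 and 6.30 in OTX015, 4.54 and 4.42 in panobinostat, and 3.64 and 3.67 with both drugs. The levels stepped down from the groups without panobinostat to panobinostat alone and again to the combination. Panobinostat lowered it 3.13-fold (-1.65 ± 0.12, adjusted p = 1.92e-05) and both drugs 5.54-fold (-2.47 ± 0.12, adjusted p = 2.26e-06). OTX015 alone gave 0.13 (95% interval -0.15 to 0.42), but added to panobinostat it took the level down a further 1.77-fold (-0.82 ± 0.12, adjusted p = 0.00631). That last call was lost without panobinostat replicate 1 (-0.76, adjusted p = 0.0577).

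CACNA2D2, a relative strong in cerebellum, ranged from 2.64 to 3.63 and was highest with both drugs. It rose at least 1.45-fold with both drugs (0.91 ± 0.14, adjusted p = 0.000857). The rise with panobinostat (0.47 ± 0.14, adjusted p = 0.0255) lost its call with centred arrays, with an intensity trend, and without DMSO replicate 1 or 2 or panobinostat replicate 1 (adjusted p = 0.0657, 0.0924 and 0.155). CACNA2D3 and CACNA2D4 stayed under background and were called in no comparison. CACNA2D4 passed for panobinostat against OTX015 with centred arrays (-0.57, adjusted p = 0.0371) and without either combination array (-0.45, adjusted p = 0.0475).

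The 3 calcium channel beta genes, whose products sit on the inner side of the channel and carry it to the membrane, were all above background in DMSO. The promoter of CACNB1 is shown because CACNB1 was the only calcium channel beta gene called. It lies at chr17:39197620-39197919 on the minus strand (GRCh38.p14, RefSeq), with GC boxes in capitals, 2 of which overlap.

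CACNB1: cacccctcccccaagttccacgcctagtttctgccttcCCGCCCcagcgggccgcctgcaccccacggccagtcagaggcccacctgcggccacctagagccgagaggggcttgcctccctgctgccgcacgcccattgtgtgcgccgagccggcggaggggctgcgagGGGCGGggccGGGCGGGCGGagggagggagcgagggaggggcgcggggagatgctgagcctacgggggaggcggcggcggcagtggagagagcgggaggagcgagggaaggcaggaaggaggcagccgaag

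This window holds 28 CpG dinucleotides and 4 GC boxes. CACNB1, the beta subunit of the skeletal muscle channel that is also made elsewhere, read 6.16 and 5.83 in DMSO, 5.59 and 5.50 in OTX015, 5.93 and 5.89 in panobinostat, and 6.66 and 6.45 with both. The combination arrays were the highest and the OTX015 arrays the lowest. The combination was 2.01-fold above OTX015 alone (1.01 ± 0.15, adjusted p = 0.00117) and 1.56-fold above panobinostat alone (0.64 ± 0.15, adjusted p = 0.0323), the second call being lost in 6 of the 8 fits that leave out 1 array (adjusted p up to 0.163). Against DMSO the rise with both drugs was 0.55 ± 0.15 (adjusted p = 0.0193), and it lost its call without DMSO replicate 2 (0.39, adjusted p = 0.112) or combination replicate 1 (0.45, adjusted p = 0.115). OTX015 alone gave -0.46 ± 0.15 (adjusted p = 0.0801) and panobinostat alone -0.09 ± 0.15 (adjusted p = 0.687). CACNB3 ranged from 4.95 to 5.67 and CACNB2 from 2.64 to 3.89, and neither was called in any comparison. CACNB2 passed with both drugs against DMSO and against OTX015 when combination replicate 1 was left out (-0.99 and -1.04, adjusted p = 0.0142 and 0.0158), and with panobinostat against OTX015 when only these groups were fitted (-0.48, adjusted p = 0.0464).

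The gamma family split between CACNG4, which fell, and CACNG7, which rose. Both encode TARPs, partners of AMPA receptors. CACNG4 read 7.10 and 6.84 in DMSO, 6.08 and 5.74 in OTX015, 4.97 and 5.10 in panobinostat, and 5.57 and 4.91 with both drugs. Every treated array lay below both vehicle arrays, and the combination arrays spanned the panobinostat ones. The fall was 2.09-fold with OTX015 (-1.06 ± 0.23, adjusted p = 0.0149), 3.82-fold with panobinostat (-1.93 ± 0.23, adjusted p = 0.00022) and 3.32-fold with both (-1.73 ± 0.23, adjusted p = 0.000375). The OTX015 call was lost without DMSO replicate 1 (-0.93, adjusted p = 0.0812) or OTX015 replicate 2 (-0.89, adjusted p = 0.108).

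CACNG7 read 2.91 and 2.89 in DMSO, 2.54 and 2.30 in OTX015, 3.93 and 4.19 in panobinostat, and 4.20 and 4.03 with both. It was above background only on the 4 arrays with panobinostat. The rise was at least 2.04-fold with panobinostat (1.16 ± 0.15, adjusted p = 0.000376) and at least 2.12-fold with both drugs (1.21 ± 0.15, adjusted p = 0.00026). CACNG4 lies between CACNG5 and CACNG1 on chromosome 17, and CACNG7 beside CACNG8 on chromosome 19, with 0 protein-coding genes in between in each case. CACNG5, CACNG1 and CACNG8 were under background in every group and called in no comparison. CACNG5 passed under OTX015 and panobinostat when DMSO replicate 1 was left out (-0.98 and -0.70, adjusted p = 0.0329 and 0.0486).

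The interaction asked whether the 2 drugs together gave the sum of their separate changes on the log2 scale. It was called for 5 channel genes, 3 higher and 2 lower than the sum. For SCN9A the combination lay 2.36 ± 0.17 below the sum (adjusted p = 0.000725), as OTX015 gave 0.77 without panobinostat and -1.60 with it. CACNA2D1 lay 0.96 ± 0.17 below it (interaction -0.96, adjusted p = 0.00967). SCN1A lay above the sum by 1.18 ± 0.21 (adjusted p = 0.00896), but its OTX015 mean is under background, and with that mean set at 3.03 the departure was 0.78. CACNB1 lay above it by 1.10 ± 0.21 (adjusted p = 0.0126), not called without OTX015 replicate 2 (1.06, adjusted p = 0.0524). CACNG4 lay above it by 1.26 ± 0.32 (adjusted p = 0.035), a call lost in 7 of the 8 fits that leave out 1 array (adjusted p up to 0.123). For SCN3B the interaction was -0.40 ± 0.18 (adjusted p = 0.205) and for CACNA1H -0.31 ± 0.29 (adjusted p = 0.547), so a departure from the sum was not shown for these genes.

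**Figure D4:**
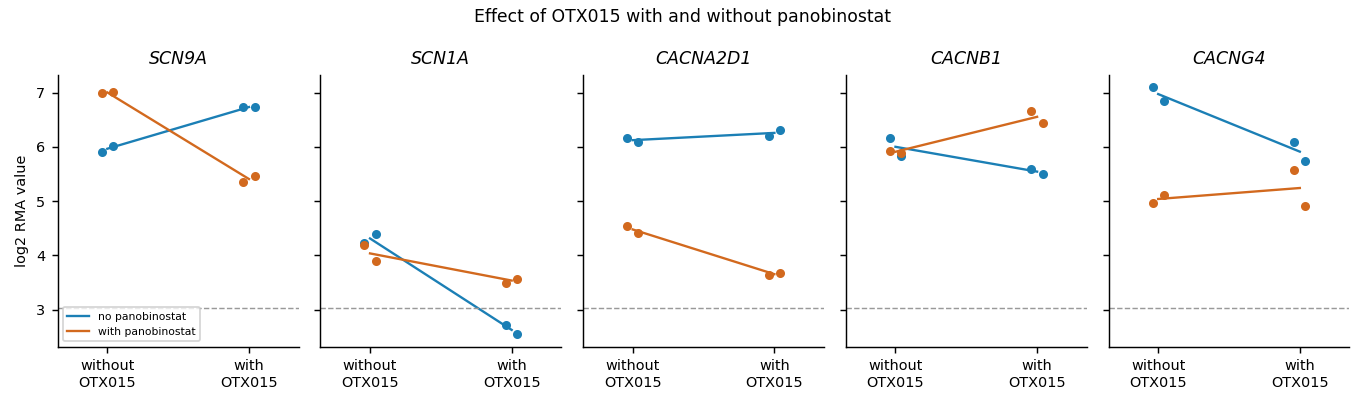
Log2 RMA value of the 5 channel genes with a called interaction, without and with OTX015, in the absence (blue) and presence (orange) of panobinostat. Points are arrays, lines join group means, and the dashed line is the background level. The lines cross for SCN9A, where OTX015 gives 0.77 without and -1.60 with panobinostat, and also for SCN1A and CACNB1. For CACNA2D1 and CACNG4 they are unequal in slope without crossing.

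The listed promoters of channel genes differed in base composition between genes above and under background. Of the 37 genes, 25 had at least 1 promoter in the RefSeq table, 13 of them above background in at least 1 group and 12 not. The highest ratio of observed to expected CpG over a gene's listed starts had a median of 0.749 in the first set and 0.474 in the second, beside 0.634 when taken the same way over all 27305 genes in the table. This is a description of 25 genes. SCN3A, SCN3B, CACNA1G, CACNA1H, CACNG4 and CACNG7, all above background and called against DMSO, had no listed promoter and are left out. SCN1A (0.378), above background with CpG-poor starts, and CACNA1C (1.07), dim with a CpG-rich one, are among those that go against the difference. The E-box CACGTG was found in 2 of the 35 promoters (5.71%, all promoters 7.26%) and the TATA box TATAAA in 2 (5.71%, all promoters 11.5%), on either strand. The letters TCAGCACC, the left part of the REST motif, were found in 1 (2.86%, all promoters 1.67%).

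Genes that work with the channels moved in both directions. Of all genes, the shares called were 7.97% higher and 8.49% lower with OTX015, 19.4% and 17.9% with panobinostat, and 19.2% and 18.4% with both drugs. Of 24 measured calcium channel partners, panobinostat raised 9 and lowered 3, and both drugs raised 12 and lowered 3, with medians of 0.34 and 0.44 beside -0.05 and 0.01 for all genes. OTX015 raised 1 and lowered 2. In either direction, 12.5%, 50% and 62.5% of the partners were called with OTX015, panobinostat and both, where 16.5%, 37.2% and 37.5% of all genes were. GEM, a small GTPase that binds beta subunits and inhibits calcium channels, read 3.13 and 3.35 in DMSO, 3.62 and 4.37 in OTX015, 9.22 and 8.82 in panobinostat, and 8.63 and 8.51 with both drugs. Its level in both groups with panobinostat was far above the rest, a rise of 55.1-fold with panobinostat (5.78 ± 0.24, adjusted p = 1.94e-06) and 40.2-fold with both. REM1, of the same GTPase family, rose 1.52-fold with panobinostat (0.61 ± 0.13, adjusted p = 0.00657), whereas REM2 (0.24) and RRAD (-0.25) stayed under background. STX1A and SNAP25, release proteins that bind presynaptic calcium channels, rose by 1.72 ± 0.15 and 1.14 ± 0.12 with panobinostat, and the active zone scaffold gene RIMS1 fell by 1.66 ± 0.14. THBS2, whose product binds CACNA2D1, fell 4.27-fold with OTX015 (-2.09 ± 0.19, adjusted p = 0.000399).

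Of 17 measured sodium channel partners, OTX015 raised 2 and lowered 5, panobinostat raised 5 and lowered 4, and both drugs raised 5 and lowered 6. In either direction this was 41.2%, 52.9% and 64.7%, where 16.5%, 37.2% and 37.5% of all genes were called. OTX015 lowered ANK2 (-1.63 ± 0.13), an ankyrin that anchors membrane proteins, and FGF12 (-1.56 ± 0.14) and FGF11 (-1.42), of the family that binds the channel tail. PTPRZ1, a receptor phosphatase that binds sodium channels and also a stem cell marker here, fell by 3.90 ± 0.12 with panobinostat. CNTN1, an adhesion protein that binds beta subunits, fell with OTX015 (-1.39 ± 0.27, adjusted p = 0.0095) and rose with panobinostat (1.33 ± 0.27, adjusted p = 0.0044). NEDD4L, a ubiquitin ligase that removes sodium channels from the membrane, rose with OTX015, panobinostat and both (0.80, 1.31 and 1.52).

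Of 29 genes for calcium release, pumps and exchangers, OTX015 raised 5 and lowered 2, panobinostat raised 8 and lowered 4, and both drugs raised 6 and lowered 3. In either direction this was 24.1%, 41.4% and 31%, where 16.5%, 37.2% and 37.5% of all genes were called. The ryanodine receptor RYR2, a calcium release channel, fell at least 2.73-fold with each treatment, and the inositol trisphosphate receptor ITPR1 rose by 1.20 ± 0.13, 1.80 ± 0.13 and 1.51 ± 0.13. Of 14 other voltage-gated or leak channel genes, the counts higher and lower were 0 and 2, 4 and 4, and 2 and 2 in the same order (14.3%, 57.1% and 28.6% called). NALF1, a subunit of the sodium leak channel, fell with all 3 (-0.63, -1.16 and -1.39). Of 21 calcium-responsive kinase, phosphatase and factor genes, they were 6 and 5, 5 and 5, and 4 and 9 (52.4%, 47.6% and 61.9% called). The factor NFATC2 fell with all 3 treatments (-1.17, -2.40 and -3.09). By group, 19 to 21 of the 21 were above background. Of all genes above background in at least 1 group, 23.7%, 51.9% and 52.9% were called. For 8 epithelial and acid-sensing sodium channel genes, which are not voltage-gated, the counts higher and lower were 0 and 2 for each treatment (25% called), ASIC1 and ASIC4.

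REST read 6.63 and 6.32 in DMSO, 6.73 and 6.86 in OTX015, 6.15 and 5.98 in panobinostat, and 5.62 and 5.44 with both drugs. It fell 1.93-fold with both (-0.95 ± 0.15, adjusted p = 0.00119) and gave -0.41 ± 0.15 with panobinostat (adjusted p = 0.0649) and 0.32 ± 0.15 with OTX015 (adjusted p = 0.216). Its corepressor RCOR1 rose with each treatment (0.92, 0.86 and 0.59), and RCOR2 fell (-1.05, -2.58 and -1.41). Over the 12 measured genes of REST and its corepressors, the counts higher and lower were 1 and 4 with OTX015, 4 and 5 with panobinostat, and 4 and 7 with both. In either direction this was 41.7%, 75% and 91.7%, where 16.5%, 37.2% and 37.5% of all genes were called. All 12 were above background in every group. Of genes above background in at least 1 group, 23.7%, 51.9% and 52.9% were called.

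**Figure D5:**
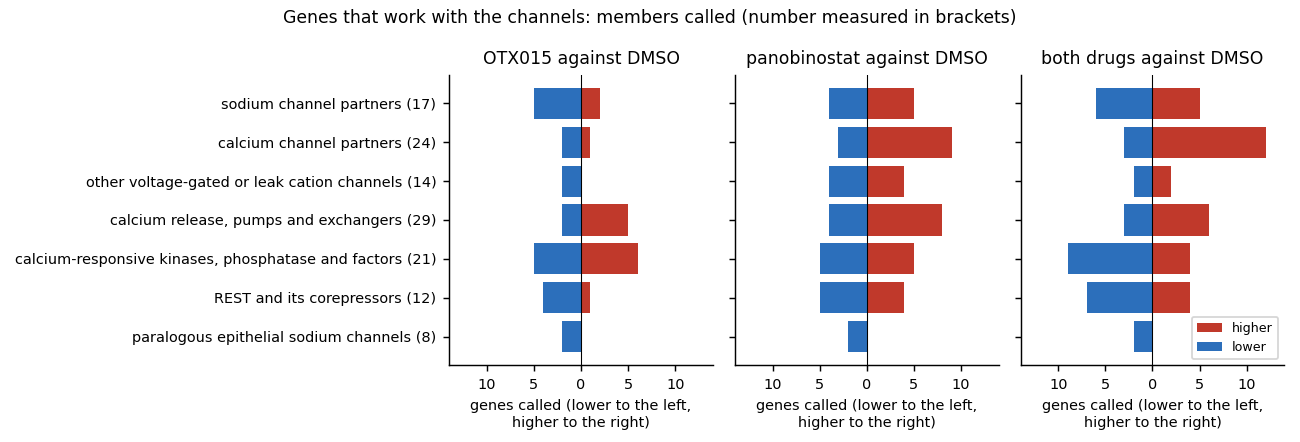
Number of genes called higher (red, to the right) and lower (blue, to the left) against DMSO in 7 lists of genes related to the channels, for OTX015, panobinostat and both drugs, with the number measured in brackets. The calcium channel partners reach 12 higher and 3 lower with both drugs. The epithelial sodium channels hold only 2 lower in each panel, as do the other voltage-gated or leak channels with OTX015. The remaining lists hold calls on both sides.

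Markers of other cell types moved in the same comparisons, in which 37.2% of all genes were called with panobinostat (19.4% higher, 17.9% lower) and 37.5% with both drugs (19.2% higher, 18.4% lower). Of 8 measured neuron markers, 4 were higher and 3 lower with panobinostat and 4 higher and 2 lower with both drugs. The mean of the 8 lay between 4.56 and 4.62 on the DMSO arrays, 4.40 and 4.56 on the OTX015 arrays, 5.42 and 5.44 on the panobinostat arrays, and 5.79 and 5.88 on the combination arrays. With panobinostat STMN2, under background in DMSO, rose at least 5.83-fold, SYP rose by 2.40 ± 0.15, MAP2 fell (-0.91 ± 0.13), and the defining neuron marker RBFOX3 gave 0.16 and was not called. Of 8 muscle markers, 1 rose with panobinostat and 0 fell. Panobinostat also raised 3 of 6 markers of microglia and macrophages, 1 of 5 of endothelium, 1 of 5 of pericytes and fibroblasts and 1 of 3 of oligodendrocytes, and lowered 1 each of the endothelial and oligodendrocyte lists. The endothelial calls (KDR 0.55, PECAM1 -0.65) and the lower call of the neuron marker ELAVL4 (-0.73) had DMSO and panobinostat means under background. No lymphocyte marker was called (0 of 4 by limma, and 0 at an unadjusted p under 0.05). The mean of the 6 stem cell markers lay between 8.47 and 8.60 on the arrays without panobinostat. It lay at 7.14 and 7.16 with panobinostat alone and at 6.48 and 6.49 with both drugs. This mean hid calls in both directions with OTX015 alone, where 16.5% of all genes were called. SOX2 (0.55), NES (0.89) and SOX9 (0.79) were higher, PROM1 (-1.86) and OLIG2 (-0.56) lower, and PTPRZ1 (0.20) was not called. Of the 6, 1 rose and 4 fell with panobinostat, and 1 rose and 5 fell with both. PTPRZ1 (-3.90), PROM1 (-2.90) and SOX2 (-2.11) had the largest falls with panobinostat, SOX9 rose (1.26), and OLIG2 gave 0.11 and was not called. The part of these changes in the channel results was not tested.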

How the data were processed

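Total RNA of NCH644 cells was biotin-labelled and hybridised to 8 one-colour arrays, 2 per group. The deposited values are log2 RMA values made with affy 1.36.1 in R 2.15.1, per the submitters' processing notes. Which array was used, and how its probe sets were defined, is not stated in the sources used. Of 23786 probe sets, 22458 carried 1 gene symbol, and 1328 were unnamed and left out. Groups came from the sample titles.

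One limma 3.58.1 model (R 4.3.3) over all 8 arrays gave 7 comparisons, two-sided, with Benjamini-Hochberg adjustment within each over all named genes, on 4 residual and 4.41 prior degrees of freedom. The fit was run on simulated data and scored for OTX015 against DMSO only. The other comparisons, the interaction among them, were not scored. The rule for the channel genes reads symbols alone, but this family and the lists were chosen with earlier results of these data known. A channel gene was given by array if it was called against DMSO with a log2 change of at least 1 and above background, or was the brightest of its class, and other channel genes by range. For each comparison described, a related list names at most 4 called genes of largest change, plus GEM, RRAD, REM1, REM2, REST and RCOR1.

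The submitters call the arrays biological duplicates. Nothing used here says whether the duplicates were separate cultures, so p-values measure the spread between these arrays. Replicate number was not used in the main model. Over 6 group pairs the same-number correlations were weak but all positive (0.0467 to 0.118, 1 over 0.1). A fit with replicate number as a block is given below. Probe sets differ in affinity, which limits any comparison of levels between genes. Such comparisons were made to pick the brightest of a class and to sort genes as above or under background. The promoter comparison rests on that sorting. Promoters are from RefSeq (GRCh38.p14), matched by symbol and gene ID.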

Additional observations from a re-analysis of the deposited data

Results flagged for a closer look

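For 5 channel genes the effect of OTX015 without panobinostat differed from its effect with panobinostat, by the interaction term of the limma fit. The interaction was -2.36 for SCN9A, where OTX015 gave 0.77 without and -1.60 with panobinostat. It was -0.96 for CACNA2D1 (0.13 without and -0.82 with). It was 1.18 for SCN1A (-1.68 and -0.50), or 0.78 with its OTX015 mean, which is under background, set at 3.03. It was 1.10 for CACNB1 (-0.46 and 0.64) and 1.26 for CACNG4 (-1.06 and 0.20). The calls for CACNB1 and CACNG4 were not kept in every fit that leaves out 1 array, as given above. Groups of 2 arrays are too small for a check of single outlying arrays.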

How the results depend on the processing

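Of 55 called values of channel genes, 37 kept their call under every alternative other than a stricter threshold, and none of the 55 changed sign under any alternative run. Centring the arrays lost 4 calls, quantile normalization 2, the intensity trend 4, a fit of the compared groups alone 7 of 50, and array weights or the inclusion of unnamed probe sets 0. The fit of the compared groups alone left 2 genes for both drugs against panobinostat. At adjusted p under 0.01 the counts were 2 for OTX015, 2 for both drugs against panobinostat and 3 for the interaction. With a log2 change of at least 1 added, they were 2 for OTX015, 6 for both drugs against DMSO, 6 against OTX015 and 1 against panobinostat.

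Leaving out each array in turn gave 2 to 5 genes for OTX015, 8 to 10 for panobinostat, 9 to 12 for both drugs, 9 to 11 for both against OTX015, 1 to 4 for both against panobinostat, 7 to 9 for panobinostat against OTX015 and 3 to 5 for the interaction. Over all genes, this gave 1885 to 3415 calls for OTX015 (3697 with all arrays), 566 to 2251 for both drugs against panobinostat (2342) and 1631 to 2546 for the interaction (3086). At adjusted p under 0.01 the calls over all genes were 1739 for OTX015, 4455 for both drugs against OTX015 (6734 at 0.05), 622 for both against panobinostat, 4272 for panobinostat against OTX015 (6582) and 1145 for the interaction. With a log2 change of at least 1 they were 1011 for OTX015, 3764 for panobinostat (8360), 3923 for both (8424), and 2712, 529, 2580 and 1786 for the last 4 comparisons. The fit of the compared groups alone called 1477 for both drugs against panobinostat.

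With the replicate block, the counts in the same order were 4, 10, 13, 12, 4, 8 and 5. In that limma fit CACNB2 was called for both drugs against DMSO (-0.59, adjusted p = 0.039) and against OTX015 (-0.64, adjusted p = 0.0353). Over all genes the block raised the calls slightly in every comparison, as from 8360 to 8539 for panobinostat. The stricter background of 3.84 left 12 channel genes above it in place of 19. Signal over background limits the dim genes, for which a change under 3.03 cannot be sized.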
